A study of Rattus norvegicus with 8 samples.

Results

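The miR-199a and miR-214 hairpins give 4 mature microRNAs (miRNAs) on the rat array used here, rno-miR-199a-5p, rno-miR-199a-3p, rno-miR-214 and rno-miR-214*, of 677 miRNAs in all (the prefix rno, for rat, is left out below). They were chosen by name, as every non-control feature assigned to a mature product of either hairpin, and together they held 80 features on 8 probes. Levels were measured in total RNA of pancreatic islets, the hormone-secreting cell clusters of the pancreas, from Sprague Dawley rats. The adult group was 4 arrays from males aged 3 months, and the P10 group was 4 arrays from rats 10 days old whose sex the labels do not give. The labels describe both as control rats and number the arrays of an age as biological replicates. The number of animals behind an array is not stated. The series title names beta-cell maturation as the subject.

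miRNAs are short RNAs that reduce the output of messenger RNAs, which they recognise mainly through bases 2 to 8, the seed. miR-199a and miR-214 lie close together, and in mouse both are cut from 1 long noncoding RNA, Dnm3os, made from the strand opposite to the Dynamin 3 gene. They are best known from mesenchymal cells: in mouse that transcript is needed for normal skeletal growth, and miR-199a-5p and miR-214 are studied in fibroblasts and in fibrosis. In human and mouse, mature miR-199a is also made at a locus inside the Dynamin 2 gene, so an array probe for the mature RNA does not tell the loci apart.

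The mature sequences are shown because the seeds set which messenger RNAs each product can recognise, and because they show how far the products can be told apart. They are those of RefSeq for the assembly GRCr8, where all 4 products were matched, and seed bases are in capitals. The array's miR-214 is the 3p arm of its hairpin and miR-214* the 5p arm.
miR-199a-5p, chr13:77116255-77116277, plus strand: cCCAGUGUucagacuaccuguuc
miR-199a-3p, chr13:77116294-77116315, plus strand: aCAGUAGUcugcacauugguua
miR-214, chr13:77121713-77121733, plus strand: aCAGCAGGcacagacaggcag
miR-214*, chr13:77121656-77121672, plus strand: aGAGUUGUcaugugucu
Between the end of miR-199a-3p and the start of miR-214 lie 5397 bases, and both miRNA genes fall inside the bounds of the Dynamin 3 gene in RefSeq. The 4 seeds differ from one another. miR-199a-3p and miR-214 begin with the same 4 bases and match at 6 of their first 8. No other rat miRNA in the RefSeq table carried any of the 4 seeds.

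Scaled values below are log2 signal relative to an array's own 75th percentile over the 278 probes that stood well above background on all 8 arrays. That percentile lay between 1284 and 1677 scanner units on the adult arrays and between 388 and 1690 on the P10 arrays. All 8 arrays were on 1 slide, with the ages in separate columns of it, and effects of the slide's column and of age cannot be told apart. The adult rats were male and the sex of the P10 rats is not given. If the groups differ in sex, its effect cannot be told apart from that of age either. The number of arrays limits the precision. The islet miRNAs miR-375 and miR-7a stood well above background on every array, as the tissue label calls for. Another miRNA listed as islet endocrine, miR-184, did so on 0 of 4 adult and 1 of 4 P10 arrays. In whole-islet RNA, fewer cells of a type and less RNA per cell cannot be told apart.

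In scaled signal, 3 of the 4 products were lower in adult than in P10 islets, each about 3-fold, and the 4th, miR-214*, stayed at background on all arrays. The calls depended on the scaling between arrays, and were lost when none was applied. Relative to miR-143, miR-145, miR-195 and miR-497, which are also found in mesenchymal cells, the gap on the same array was wider, whereas relative to miR-218a, another such miRNA, it was small.

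miR-199a-5p, studied in hypoxia and in lung fibroblasts, was at -2.45, -2.33, -2.47 and -2.63 on adult replicates 1 to 4, against -0.78, -0.57, -0.58 and -0.95 on P10 replicates 1 to 4. Every adult array was below every P10 array, and the nearest 2 arrays of different age stood 1.38 apart. The means were -2.47 ± 0.12 in adult and -0.72 ± 0.18 in P10 islets (SD, n = 4 each). It fell by 1.75 ± 0.13 on the log2 scale (SE), a 3.36-fold difference (95% interval -2.04 to -1.46, limma adjusted p = 2.75e-05).

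miR-199a-3p, the other arm of the same hairpin, known in human cells for acting on MET and MTOR transcripts, was at -1.14, -1.001, -1.22 and -1.35 in adult islets, against 0.46, 0.59, 0.67 and 0.05 in P10 islets. The ages again did not overlap, with a gap of 1.05. Its means were -1.18 ± 0.15 in adult and 0.44 ± 0.28 in P10 islets (SD, n = 4 each). The fall was 3.07-fold (log2 difference -1.62 ± 0.16 SE, 95% interval -1.99 to -1.25, limma adjusted p = 0.000141).

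miR-214, known in mouse muscle cells for acting on the Ezh2 transcript, was at -3.09, -2.98, -3.09 and -3.27 in adult islets, against -1.41, -1.29, -1.22 and -1.94 in P10 islets. The highest adult and the lowest P10 value were 1.04 apart. Its means were -3.11 ± 0.12 in adult and -1.46 ± 0.33 in P10 islets (SD, n = 4 each). It fell 3.12-fold (log2 difference -1.64 ± 0.17 SE, 95% interval -2.04 to -1.24, limma adjusted p = 0.000168).

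**Figure D1:**
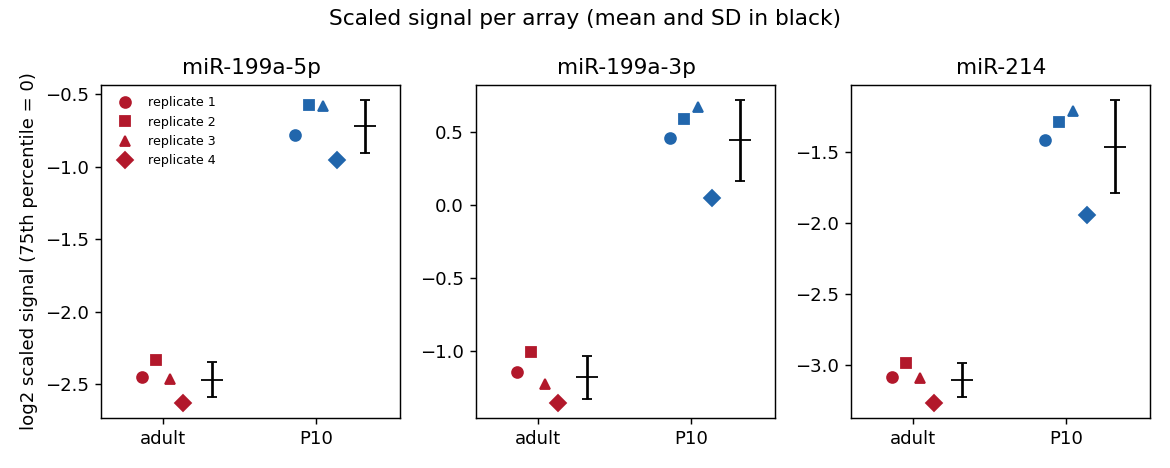
Scaled log2 signal of miR-199a-5p, miR-199a-3p and miR-214 (1 panel each, vertical axes differ) on each of 4 adult and 4 P10 arrays, with a marker shape per replicate and the mean ± SD in black. In each panel all adult points lie below all P10 points, and P10 replicate 4 is the lowest of its age.

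Of 238 miRNAs tested, 47.5% were called in either direction and 20.2% were called lower in adult (limma adjusted p under 0.05), and 3 of 3 tested products were among those called lower. The same share of tested miRNAs, 20.2%, had every adult array below every P10 array, as these 3 had. Their median difference was -1.64, beside -0.01 over all tested miRNAs. In rank from the lowest difference they stood 21st (miR-199a-5p), 24th (miR-214) and 25th (miR-199a-3p) of 238.

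**Figure D2:**
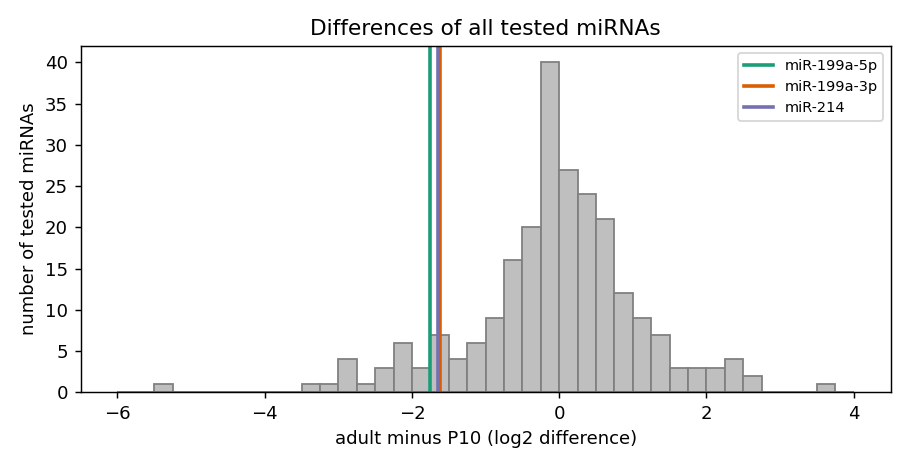
Histogram of the adult minus P10 log2 differences of the 238 tested miRNAs (horizontal axis, bins of 0.25; vertical axis, number of miRNAs), with coloured lines at the 3 products. The lines lie close together between -1.75 and -1.62, in the lower part of the distribution, whose median is -0.01.

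Each product was read by 2 probes with 10 features each. All 6 probes of the 3 detected products stood well above background on all 8 arrays, and 461 of their 467 used features did. Features of 1 probe on 1 array varied with a coefficient of variation of 2.64% to 25.2% (median 8.03%), and the highest values came from the dimmer miR-199a-5p probe. The probes of a product gave like differences: -1.75 and -1.80 for miR-199a-5p, -1.62 and -1.65 for miR-199a-3p, and -1.64 and -1.71 for miR-214. In a limma fit over 435 probes, of which 20.9% were called lower in adult, all 6 passed (adjusted p from 3.36e-05 to 0.00017). For miR-214*, none of the used features of either probe was well above background, and probe means ran from -5.31 to -0.643 scanner units in adult and from -3.35 to 0.037 in P10 islets, so no difference is given for it. The authors' value table likewise holds 3 of the 4 products.

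Before scaling, the ages overlapped. The brighter miR-199a-5p probe read 247, 278, 303 and 208 scanner units on adult replicates 1 to 4, against 226, 296, 661 and 873 on P10 replicates 1 to 4. The brighter miR-199a-3p probe read 615, 699.7, 720.3 and 504 in adult, against 533, 663, 1573 and 1751 in P10 islets. The brighter miR-214 probe read 159, 177, 197 and 133 in adult, against 146, 180, 426 and 439.8 in P10 islets. P10 replicates 1 and 2 thus read within or near the adult range and replicates 3 and 4 above it. Those 2 P10 arrays also had the lowest 75th percentile of all 8 (388 and 439.9), while the labelling and hybridisation spike-in signal was similar on all arrays (3540 to 4254 in adult, 3804 to 4315 in P10).

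**Figure D3:**
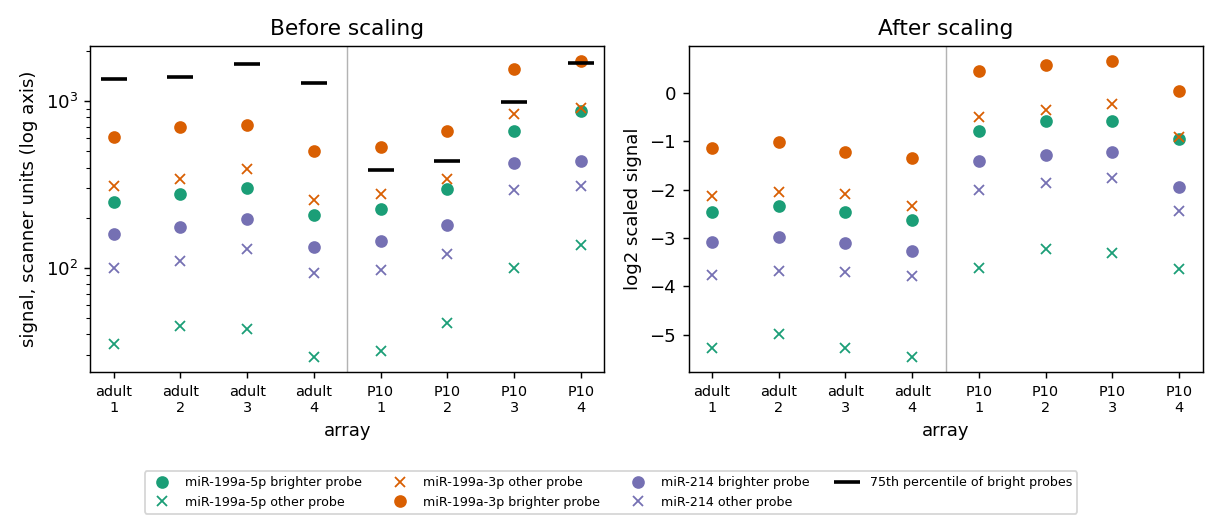
Signal of the 2 probes of each product on each array, before scaling (left, scanner units, log axis) and after scaling (right, log2), with the 75th percentile of the bright probes as black bars on the left. On the left, P10 replicates 1 and 2 lie near the adult arrays and the black bars are lowest there. On the right, each probe has all adult arrays below all P10 arrays.

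Without scaling, the differences were -0.79 for miR-199a-5p, -0.66 for miR-199a-3p and -0.68 for miR-214, and none passed (limma adjusted p = 0.167, 0.218 and 0.195). The median over all tested miRNAs was then 0.94, so relative to it the 3 products were at -1.73, -1.60 and -1.62. With spike-in scaling they were at -0.70, -0.57 and -0.60 (limma adjusted p = 0.231, 0.298 and 0.273), with an overall median of 1.02. The falls are therefore relative to the bulk of measured miRNAs. With cyclic loess over all probes, miR-199a-3p lost its call (-0.67, limma adjusted p = 0.273). Against the adult arrays, P10 replicates 3 and 4 alone gave -1.67, -1.50 and -1.50 for miR-199a-5p, miR-199a-3p and miR-214, and P10 replicates 1 and 2 alone gave -1.79, -1.69 and -1.75, with all 3 products called in both cases. Of all tested miRNAs, 20.1% were called lower with P10 replicates 3 and 4 alone, and 38.3% with P10 replicates 1 and 2 alone.

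**Figure D4:**
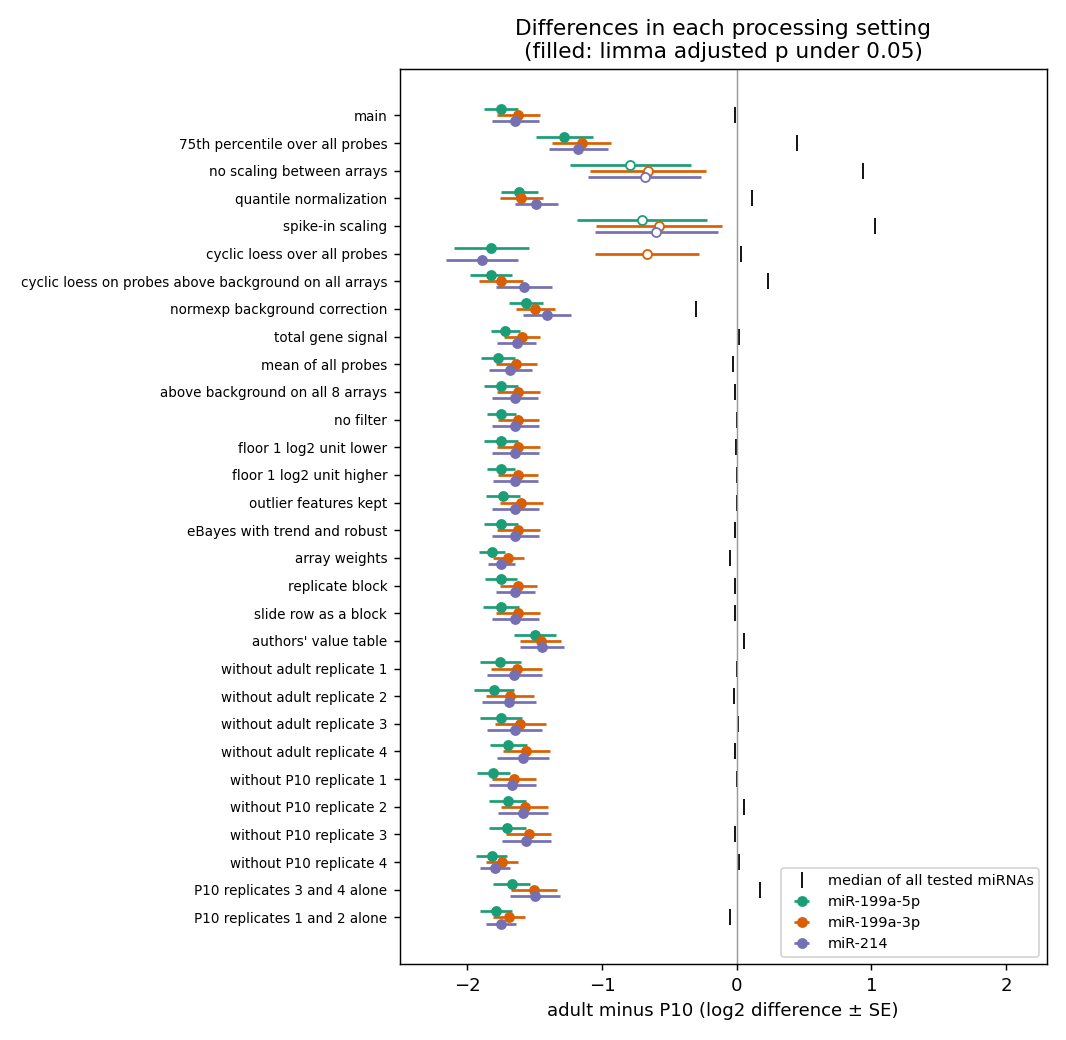
Adult minus P10 log2 difference (± SE, horizontal axis) of the 3 products in each processing setting (rows), with filled symbols where the limma adjusted p was under 0.05 and a black tick at the median of all tested miRNAs. Symbols are open without scaling and with spike-in scaling for all 3, and with cyclic loess over all probes for miR-199a-3p, and every symbol lies below 0.

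The 3 products moved together from array to array. Within an array, the log2 ratio of 1 product to another does not change when the array is divided by a constant. It shows unequal change only, since signals of different probes are not levels that can be ranked. The ratio of miR-199a-3p to miR-214 was 1.95, 1.98, 1.87 and 1.92 in adult, against 1.87, 1.88, 1.88 and 1.99 in P10 islets. These values overlapped, and the mean difference was 0.02 (exact two-sided permutation p = 0.6, adjusted over 21 ratios p = 0.6). The ratio of the 2 arms, miR-199a-3p to miR-199a-5p, was 1.29 ± 0.04 in adult and 1.16 ± 0.11 in P10 islets (SD, n = 4 each), a difference of 0.13 that did not pass (exact permutation p = 0.0571, adjusted p = 0.0632). The ratio of miR-199a-5p to miR-214 was 0.64, 0.65, 0.63 and 0.64 in adult, against 0.63, 0.71, 0.63 and 0.99 in P10 islets. P10 replicate 4 was the highest, P10 replicate 2 came next, and the 6 other arrays lay within 0.63 to 0.65. The difference of -0.10 did not pass (exact permutation p = 0.314, adjusted p = 0.33). Over all 8 arrays the SD of these 3 ratios was 0.05 to 0.12.

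P10 replicate 4 had the lowest P10 value of each product, by 0.17 to 0.53 below replicate 1. The same array had the highest summed scaled signal of leukocyte miRNAs in its age (4.16, against 1.10 to 1.83 on the other P10 arrays and 1.69 to 2.09 in adult). Most of that sum was miR-142-3p, at 1.36 there against -2.22 to -1.67 on the other P10 arrays. miR-142-5p, miR-146a and miR-223 were also highest there, whereas miR-150 was highest on P10 replicate 3 and miR-146b on P10 replicate 2. Without P10 replicate 4, the falls were 1.82, 1.74 and 1.80 for miR-199a-5p, miR-199a-3p and miR-214. All 3 were called, beside 25.1% of all tested miRNAs called lower in that setting. The part of leukocyte RNA in the products' values was not tested.

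Other mesenchymal and smooth muscle miRNAs did not fall as a group. Of 23 others in the list, 15 were tested, 6 were called higher in adult (27.3% of all tested miRNAs were), 2 were called lower (20.2% of all tested) and 7 did not pass. Their median difference was 0.50, beside -0.01 over all tested. miR-22 rose (1.68), as did miR-195 (1.36) and miR-497 (1.14), a clustered pair. Each of these calls was lost with cyclic loess over all probes. miR-218a fell (-1.54, not called without scaling or with spike-in scaling), and miR-322 fell (-1.06, not called without scaling, with spike-in scaling, with cyclic loess over all probes or with the percentile over all probes). miR-143, marking smooth muscle and fibroblasts, was at 0.93 and passed narrowly (limma adjusted p = 0.0485, lost in 21 of 29 alternatives), and its cluster partner miR-145 was at 0.79 and did not pass, though it did in 4 of 28 alternatives. The label mesenchymal thus covers miRNAs that moved in opposite directions here. The list's summed scaled signal was 17.5 to 22.5 in adult and 12.2 to 17.8 in P10 islets, and miR-145*, miR-218a-2*, miR-708, miR-224, miR-133a and miR-1 were not well above background on any array. The other untested members, miR-503 and miR-322*, were well above background on 0 of 4 adult and 2 of 4 P10 arrays.

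The products were then set against single miRNAs on the same array. Each was compared with miR-143, miR-145, miR-195 and miR-497 of the mesenchymal list, whose own differences were all above 0, with miR-126 of endothelial cells and with miR-375 of endocrine cells. By themselves miR-126 was at -0.15 and did not pass (it was called lower in 2 of 29 alternatives), and miR-375 was at 0.47 (limma adjusted p = 0.0485, lost in 17 of 29 alternatives and turned in sign in 3). All 18 of these ratios passed (exact permutation p = 0.0286 each, the smallest that 70 assignments of the arrays allow, adjusted over 21 ratios p = 0.0333), with every adult array below every P10 array. These are not 18 separate results, since the 3 products moved together and their own scaled values already separated the ages. The share of such ratios over other pairs of miRNAs is not given. The differences were -3.11 to -2.98 against miR-195, -2.89 to -2.76 against miR-497, -2.68 to -2.55 against miR-143, -2.54 to -2.41 against miR-145, -2.21 to -2.08 against miR-375 and -1.60 to -1.47 against miR-126. Of the P10 arrays, 2 of 4 held miR-145 well above background, and on P10 replicate 1 it lay at the floor set for low values. The sizes of the ratios to miR-145 thus depend in part on that floor and on signal near background. Leaving out any 1 array of either age leaves 35 assignments, with a smallest possible exact permutation p of again 0.0286. Without any 1 adult array all 18 calls ended (exact permutation adjusted p = 0.0545 to 0.0667), although no difference moved by more than 0.117. Without any 1 P10 array 18 or 19 of 21 ratios stayed called. In the authors' value table, 1 of the 3 ratios to miR-126 was called (-0.99 to -0.94) and the ratios to miR-375 were smaller (-1.08 to -1.03). Against the mesenchymal miRNAs that fell, picked after their values were seen and so not tested, the gap was smaller: -0.21 to -0.08 against miR-218a, where the ages overlapped for all 3 products, and -0.69 to -0.56 against miR-322, where they did not overlap for 1, miR-199a-5p.

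Within P10 these ratios were spread wide. miR-214 over miR-143 was -5.70, -5.58, -5.75 and -5.40 in adult, against -2.35, -2.40, -2.97 and -4.40 in P10 islets. P10 replicate 4 lay closest to the adult arrays, and replicates 1 and 2 farthest from them. miR-214 over miR-195 was -2.92, -2.82, -2.87 and -2.77 in adult, against 0.64, 0.54, 0.14 and -0.68 in P10 islets, in the same order. On P10 replicate 4 miR-143 was 1.52 higher than on P10 replicate 1, and miR-214 was 0.53 lower. The acinar miRNAs miR-216a and miR-217 had a summed scaled signal of 0.195 to 0.397 in adult islets, against 0.783 on the first, 0.632 on the second, 0.0587 on the third and 0.0440 on the fourth P10 replicate. On the fourth, both lay at the floor set for low values. The part of acinar RNA in the ratios was not tested.

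**Figure D5:**
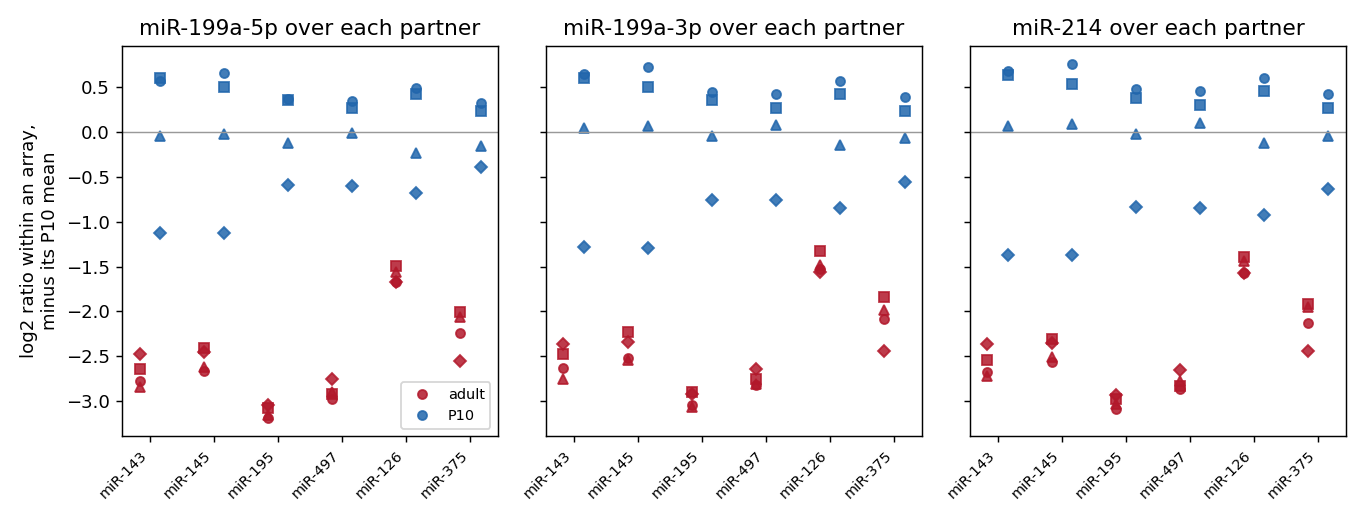
Within-array log2 ratio of each product (1 panel each) to each of 6 partner miRNAs (horizontal axis), shown minus its P10 mean, with adult arrays left of P10 arrays and marker shapes circle, square, triangle and diamond for replicates 1 to 4. For all 18 ratios the 4 adult points lie below the 4 P10 points, and the P10 diamond, replicate 4, is the lowest P10 point.

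Of the fibrosis and matrix list, which holds miRNAs studied for their action on collagen and other matrix genes, 13 were tested, 5 were called higher in adult (27.3% of all tested), 1 was called lower (20.2% of all tested) and 7 did not pass, with a median of 0.17. miR-29b (3.59), miR-29c (2.68) and miR-29a (2.66), which act on collagen transcripts, rose, opposite to the products described here, as did miR-29c* and miR-200c. The calls of miR-29b, miR-29a and miR-200c were lost with cyclic loess over all probes. miR-192 fell (-2.78), and its call was lost without scaling, with spike-in scaling, with cyclic loess over all probes and with no filter on low signals. It is also a gut epithelium miRNA, and all 3 tested members of that list fell, beside 20.2% of all tested (the others were miR-194, not called with spike-in scaling, and miR-215, and on adult arrays miR-215 stayed at background), with summed scaled signal of 0.28 to 0.51 in adult and 1.11 to 13.5 in P10 islets. Of the islet endocrine list, 7 of 7 tested members were called higher in adult, beside 27.3% of all tested. Its summed scaled signal was 44.4 to 50.4 in adult and 11.9 to 26.2 in P10 islets. The list holds 8 members, and the untested one, miR-184, was well above background on 0 of 4 adult and 1 of 4 P10 arrays. Among the 7 tested, miR-7a, miR-7b, miR-7a-1* and miR-7a-2* are products of miR-7 hairpins, and miR-375 lost its call in 17 of 29 alternatives and turned in sign in 3. On P10 arrays miR-7a-1* was well above background on 3 of 4 and miR-7a-2* on 2 of 4. Their adult arrays alone met the minimum for testing. Both tested erythroid members, miR-451 (1.47) and miR-144 (0.91), were called higher, beside the same 27.3%. Only 2 of 4 P10 arrays held miR-144 well above background, so its adult arrays alone met the minimum for testing. It lay at the floor on adult replicate 4 and P10 replicates 1 and 3, so its size depends in part on that floor. The call of miR-451 was lost in 1 of 29 alternatives and that of miR-144 in 15 of 28, with 1 more turned in sign. In the acinar (2 tested), leukocyte (6), endothelial (3) and neuronal (2) lists 0 members passed in limma, beside 47.5% of all tested called in either direction. Of the neuronal list, miR-9, miR-9*, miR-124 and miR-138 were not well above background on any array. The acinar list names miR-216b, which did not match the array's miR-216b-5p. That miRNA was at -0.47 and did not pass (limma adjusted p = 0.658). The part of a changed share of endocrine or other cells in the fall of miR-199a and miR-214 was not tested.

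The miRNAs most like the mean of the 3 products over the 8 arrays were miR-450a (Pearson r = 0.983), miR-18a (0.979), miR-15b (0.975), miR-93 (0.974), miR-532-3p (0.972) and miR-17-5p (0.971). These values are descriptions: the arrays share their scaling and fall into 2 ages, so r mostly follows the age difference. miR-450a, of an X-linked cluster, was at -4.56 ± 0.09 in adult and -2.54 ± 0.11 in P10 islets (SD, n = 4 each). miR-18a, miR-93 and miR-17-5p belong to the miR-17 clusters, known for promoting cell proliferation, and of these miR-93 differed by -1.72 and miR-17-5p by -2.45. miR-15b, of a family known for restraining the cell cycle, differed by -1.12. Without scaling or with spike-in scaling, miR-450a, miR-93 and miR-15b were not called, and miR-15b was at -0.16 and -0.08. The call of miR-17-5p was lost with cyclic loess over all probes. On every adult array miR-18a and miR-532-3p lay at the floor set for low values, so no size is drawn from them. Least like the products were miR-344a-3p (r = -0.996), miR-29a (-0.989) and miR-29b (-0.986). On P10 replicates 1, 2 and 3 miR-344a-3p lay at the floor, so its r rests in part on the floor. Among themselves the 3 products had r of 0.992 to 0.999 over the 8 arrays.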

How the data were processed

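Per the labels' protocols, total RNA carried cyanine dye and was read on 1-colour Agilent miRNA arrays. Intensity values in the scanner files the authors deposited come from Agilent's Feature Extraction software, version 10.7.3.1, per the file headers, and its processed signal was used. The authors' deposited value table holds 1 log2 value per array for 311 miRNAs. The steps behind it are not given in the sources used here. Its columns share 1 set of sorted values (largest gap 0.00787) and 1 median (6.54), and each ranks miRNAs as the total gene signal of its array does (Spearman's rho 1).

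Features marked as outliers were left out and the rest averaged per probe. Arrays were scaled as described above and raised to a common floor (-5.51, from the lowest percentile of probes well above background, taken as a median of the 8 arrays). A probe was well above background where most used features were. Each miRNA was represented by its brightest probe. With a minimum of 4 of 8 arrays well above background, 238 miRNAs entered a limma 3.58.1 fit (R 4.3.3) of adult minus P10 without a block. Their p-values were adjusted together by Benjamini-Hochberg, with a threshold of 0.05. Within-array ratios had exact two-sided permutation tests. The limma step was tested on simulated data. No 2 arrays were identical (highest correlation 0.997).

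Members, lists, tests and alternatives were chosen with earlier results of these data known. Named miRNAs were the products, the 6 ratio partners, the 6 most and 3 least alike by Pearson correlation, and up to 4 per list with the largest called differences; most other lists are given as counts. miR-322, miR-29c* and miR-200c complete small counts and were named after their values were seen. No chance test was run on the lists. Where nothing says that samples of an age came from separate animals, p-values measure only the spread between these samples.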

Additional observations from a re-analysis of the deposited data

Results flagged for a closer look

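Of 100 sets of 4 arrays examined (each named miRNA and ratio in each age), 6 had 1 array far from the other 3 by Dixon's criterion. For independent sets chance gives about 1 in 20. These sets are not independent, since the ratios share products and partners, so the count cannot be weighed against that rate. The ratio of miR-199a-3p to miR-214 was 1.99 on P10 replicate 4, above the 3 other P10 arrays. miR-143 was at 2.13, miR-195 at -0.49 and miR-451 at -2.13 on adult replicate 4, each the lowest adult value. miR-532-3p was at -5.001 on 1 P10 array, and miR-344a-3p at -4.84 on 1 P10 array with the others at the floor.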

How the results depend on the processing

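Over 29 alternatives the difference of miR-199a-5p kept its direction and call in 27, that of miR-214 in 27 and that of miR-199a-3p in 26, and none of the 3 turned sign. The exceptions were no scaling (-0.79, -0.68 and -0.66 for miR-199a-5p, miR-214 and miR-199a-3p, with 0 called) and spike-in scaling (-0.70, -0.60 and -0.57, with 0 called), and cyclic loess over all probes for miR-199a-3p (-0.67). With limma, adjusted p ran up to 0.231, 0.273 and 0.298. Without each array in turn the ranges were -1.82 to -1.69, -1.80 to -1.56 and -1.74 to -1.54. The number of ratios called lay between 0 (without any 1 adult array) and 19, with 16 in the authors' value table, where miR-199a-5p (-0.99) and miR-214 (-0.94) over miR-126 lost their calls. All 198 alternative values of the 18 ratios to partner miRNAs were below 0. The ratio of miR-199a-3p to miR-214 turned to -0.00998 in the authors' value table.

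Deviations of same-numbered arrays had correlations of -0.23 to 0.48, which cannot show whether those arrays were handled together. The main fit did not pair arrays by number. A replicate block left the differences of miR-199a-5p, miR-199a-3p and miR-214 at -1.75, -1.62 and -1.64 with all 3 called, and 95 miRNAs called in place of 113. Over all tested miRNAs, 65 were called higher and 48 lower. Array weights gave 179 calls, and P10 replicates 1 and 2 alone gave 175. Spike-in scaling gave 65 calls, of which 56 were higher and 9 lower. Cyclic loess over all probes gave 33, of which 14 were higher and 19 lower. The split was 61 higher and 17 lower when arrays were left unscaled, 33 higher and 46 lower after normexp (run on median foreground and background signals), and 90 higher and 34 lower where the percentile came from all probes.

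For 26 named miRNAs that are not products of these hairpins the alternatives were added after seeing the data, and of 740 values 86 lost a call, 6 gained one and 12 turned sign. After normexp miR-145 was at -0.27 and miR-144 at -0.32. miR-375 was at -0.30 with quantile normalization, -0.28 with cyclic loess on bright probes and -0.41 in the authors' value table. miR-126 was at -0.15 as reported, called lower at -0.78 with quantile normalization and at -0.53 with P10 replicates 3 and 4 alone, and at 0.32 with the percentile over all probes, 0.81 without scaling, 0.90 with spike-in scaling, 0.15 with cyclic loess over all probes, 0.13 with array weights, -0.37 to 0.0093 when 1 array was left out (above 0 without P10 replicate 4) and 0.27 with P10 replicates 1 and 2 alone. The cause of these changes was not tested. Signal over background limits what can be said of miR-214*.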
